A study of Mus musculus with 9 samples.

Results

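The genes described here are 9 enzymes that move nitrogen and carbon between glutamine, glutamate, proline, ornithine, citrulline and arginine. They were taken by symbol as Glul, Aldh18a1, Pycr1, Prodh, Oat, Otc, Cps1, Ass1 and Arg2, and each symbol matched 1 Ensembl gene, so that 9 of the 21253 genes in the count table are covered. Poly(A) RNA was sequenced from AKP tumoroids of the mouse, tumour cells grown as organoids, in 9 samples that form 3 groups of 3. The sources used here name no organ and give no other allele of the line. Every group carries a short hairpin RNA against Apc, a brake on Wnt signalling, and in this model the hairpin is made only while doxycycline is present; its promoter is not named there. Controls stayed on doxycycline, which keeps Apc off. The other groups had spent 2 or 7 days off doxycycline, which restores Apc. The comparisons ask how the enzymes differ once Apc is back. Doxycycline removal, Apc restoration and time off the drug coincide and cannot be told apart. Replicates are labelled as technical, and p-values therefore measure only the spread between these samples. All samples come from 1 kind of organoid, and no line without the hairpin was analysed here.

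Library totals ran from 24143589 to 32277040 counts. Apc itself averaged 7.49 ± 1.17 CPM (controls), 31.6 ± 6.66 CPM (2 days) and 76.9 ± 13.9 CPM (7 days; SD, n = 3 each), with no overlap between groups. CPM are counts relative to the library total after scaling by TMM, which takes most genes as unchanged between samples. Of 9 markers of intestinal epithelium, 8 had a mean of at least 1 CPM in every group, while Cdx1 had 0 counts in controls and a mean under 1 CPM later. The summed level of 10 enterocyte markers was 11.5 to 14 CPM (controls), 28.7 to 31 CPM (2 days) and 14100 to 15100 CPM (7 days), and all 10 were higher at 7 days than in controls. Some of them, such as Fabp1, passed the filter on low counts only through the 7-day samples. The 7 crypt-base stem cell markers summed to 364 to 389, 75.7 to 82.9 and 42.5 to 46.3 CPM in the same order of groups, and all 6 tested were lower at both times. These shifts run alongside every 7-day change below, and their part in those changes was not tested. In bulk RNA, fewer cells of a type and less RNA per cell cannot be told apart. Since Otc and Cps1 are also liver genes, 9 hepatocyte markers were read: they summed to 1.15 to 1.47, 2.54 to 3.41 and 29.9 to 33.5 CPM, of which Ttr, also made outside the liver, held 30.2 CPM at 7 days. Albumin (Alb) had 0, 1 and 1 counts summed over each group, and Ahsg had 0. Fibroblast and endothelial markers each summed to at most 2.27 CPM in any sample. The 6 leukocyte markers summed to 1.17 to 1.43 CPM (controls), 1.42 to 1.81 CPM (2 days) and 3.81 to 5.8 CPM (7 days). Of these, 2 were tested and both were higher at 7 days, Cd68 with a mean of 3.36 CPM at 7 days and 1.11 CPM in controls, and Csf1r with 0.956 and 0.0247 CPM. Csf1r passed the filter on low counts only through the 7-day samples, so a difference was built into its being tested. Cd68 and Csf1r moved with the 7-day rises of Arg2 and Nos2, and their part in these was not tested.

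As background, glutamine and proline both feed a pyrroline carboxylate and glutamate semialdehyde pool in mitochondria, from which cells make either proline or ornithine. In the small intestine, mature absorptive cells turn ornithine into citrulline with Cps1 and Otc and export it, and other organs, mainly the kidney, convert it to arginine with Ass1 and Asl. In the liver the same enzymes form the urea cycle and are zoned: Glul and Oat belong to the Wnt-active cells around the central vein, whereas Cps1 and Ass1 are highest around the portal vein. Proliferating tumour cells often use the pathway to make proline.

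The 9 enzymes did not move as a block. After 7 days, the mitochondrial enzymes of citrulline synthesis and arginine breakdown (Otc, Cps1 and Arg2) stood 46.6-fold to 809-fold above control, Prodh and Ass1 were 7.78-fold and 8.64-fold lower, and Aldh18a1, Oat and Glul were lower by 1.19-fold to 1.5-fold. At 2 days 5 of the 9 passed the edgeR test, 1 higher and 4 lower, where 23.7% of all 12535 genes tested were called, 13.1% higher and 10.6% lower. At 7 days against control 8 of 9 passed, 3 higher and 5 lower, with 82.3% of all genes called (40.5% higher, 41.8% lower), and at 7 days against 2 days 7 of 9 passed, 4 higher and 3 lower, with 79.1% called (39.2% higher, 39.9% lower). With such backgrounds the number of members called at 7 days says little about this pathway, and the sizes and directions are what follow. The median log2 fold change of the members was -0.22, -0.25 and 0.01 in these comparisons, against -0.00, -0.03 and -0.03 for all genes tested. With library size alone as the scaling, the median of all genes was -0.43 at 7 days against control and -0.44 at 7 days against 2 days, so 7-day values hold for the TMM scaling. That scaling by library size called 3675 of all genes higher and 6876 lower at 7 days against control, and 3281 and 7041 at 7 days against 2 days. Members were then 3 higher and 5 lower in both comparisons. All 9 passed the filter on low counts. Cps1 did so only through the 7-day samples and Otc only through the 2-day and 7-day samples, so a difference was built into their being tested. Both times share the same controls, and both later comparisons share the 7-day samples.

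**Figure D1:**
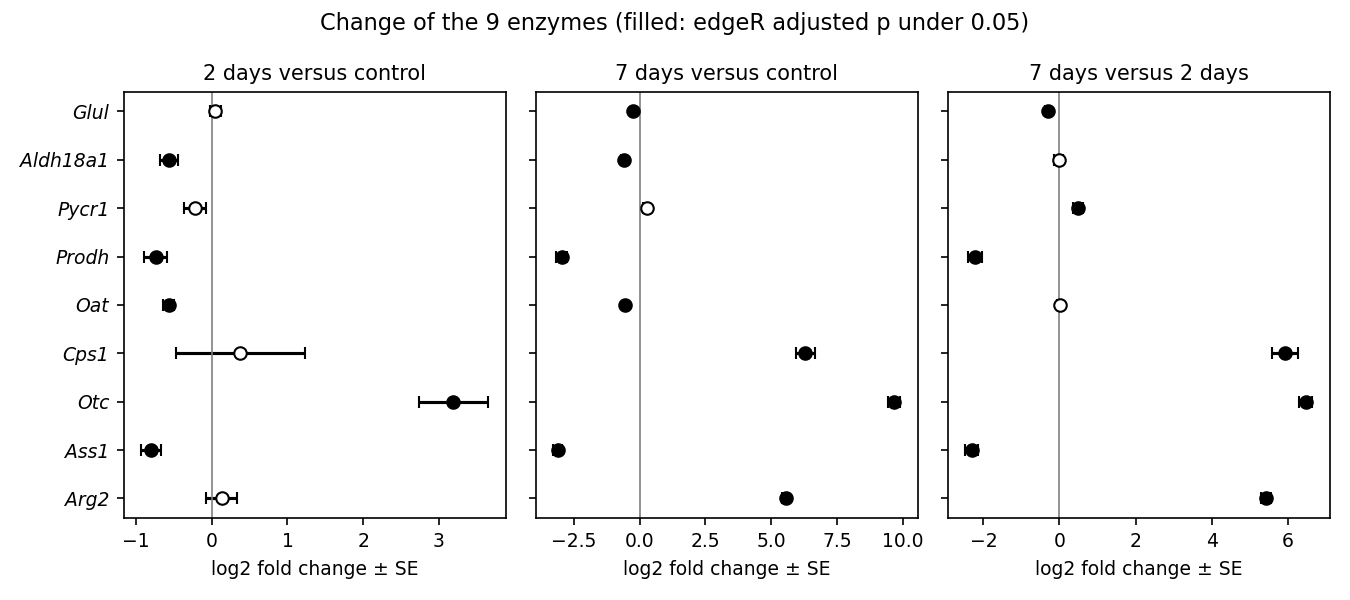
Log2 fold change ± SE of each of the 9 enzymes (rows) in the 3 comparisons (panels, each with its own axis), filled where the edgeR adjusted p was under 0.05. At 2 days only Otc, at 3.19, lies on the higher side among the filled points, and at 7 days Otc, Cps1 and Arg2 lie at 9.66, 6.28 and 5.54 while Prodh and Ass1 lie at -2.96 and -3.11.

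The sequence upstream of a gene's start is shown for 4 members: Otc as the enzyme with the largest rise, Aldh18a1 and Oat as a pair with nearly the same early fall, and Pycr1, which stayed low in all groups. The strong falls of Prodh and Ass1 are not among the 4. RefSeq promoter windows on GRCm38.p6 matched 7 of the 9 members, all but Cps1 and Arg2. The bases before the start are printed, up to 250, stopping at the first annotated exon, in the direction of transcription. Capitals mark matches on either strand to the TCF/LEF core CTTTGA (present in 14% of the 27025 windows of this length in the table), the CDX core TTTATG (11.1%), the E-box CACGTG bound by Myc family factors (6.05%), the amino acid response motif TGATGNAA of Atf4 (3.53%), the TATA box TATAAA (13%) and CCAAT (34.5%).
Otc upstream, chrX:10252055-10252304, plus strand: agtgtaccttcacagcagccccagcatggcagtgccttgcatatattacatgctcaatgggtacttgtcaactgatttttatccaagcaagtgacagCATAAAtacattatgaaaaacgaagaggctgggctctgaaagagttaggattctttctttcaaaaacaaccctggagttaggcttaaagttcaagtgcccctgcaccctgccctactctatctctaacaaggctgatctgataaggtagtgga
Aldh18a1 upstream, chr19:40588464-40588713, minus strand: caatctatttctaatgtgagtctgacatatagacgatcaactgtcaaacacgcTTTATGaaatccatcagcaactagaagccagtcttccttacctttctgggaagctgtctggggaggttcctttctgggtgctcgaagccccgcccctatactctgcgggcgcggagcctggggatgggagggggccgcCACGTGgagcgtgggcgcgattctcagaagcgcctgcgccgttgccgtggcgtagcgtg
Oat upstream, chr7:132576399-132576648, minus strand: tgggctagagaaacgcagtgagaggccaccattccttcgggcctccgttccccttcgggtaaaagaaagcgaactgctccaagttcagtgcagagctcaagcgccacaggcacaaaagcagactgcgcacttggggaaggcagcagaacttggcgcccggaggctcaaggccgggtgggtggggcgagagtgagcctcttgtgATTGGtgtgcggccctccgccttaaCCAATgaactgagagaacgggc
Pycr1 upstream, chr11:120643770-120643998, minus strand: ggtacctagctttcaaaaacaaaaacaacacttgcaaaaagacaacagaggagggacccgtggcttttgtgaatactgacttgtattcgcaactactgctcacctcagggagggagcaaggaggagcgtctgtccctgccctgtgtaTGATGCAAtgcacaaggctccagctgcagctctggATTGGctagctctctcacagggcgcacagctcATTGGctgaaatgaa
The Otc window held 1 CpG in 250 bases and 43.6% GC, where 8.26% of windows had fewer CpG and 20.8% a lower GC content, and 1 CDX core match on its minus strand. Aldh18a1 held 18 CpG, 1 E-box at 59 bases before the start and 1 CDX core. Oat held 14 CpG and a pair of CCAAT matches, 1 on each strand. Pycr1 held the amino acid response motif at 103 bases before the start and a pair of CCAAT matches on the minus strand. In the windows not printed, Ass1 held 1 E-box at 36 bases before the start and Glul held CCAAT matches. Unlike the matches in the printed runs, these lie past the point where the first annotated exon begins in their windows. None of the 7 windows held the TCF/LEF core or the TATA box in these letters. A match is a run of letters and not a shown binding site.

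Glutamine synthetase, Glul (ENSMUSG00000026473, GRCm38 chromosome 1, 153899944 to 153909723, plus strand), joins ammonia to glutamate and is the enzyme that makes glutamine. Controls had 40.6, 41.6 and 41.5 CPM, 2-day samples 41.1, 42.5 and 44.7 CPM, and 7-day samples 34.3, 36.0 and 33.7 CPM. Control and 2-day samples overlapped, and all 7-day samples lay below both. At 7 days the level was 1.19-fold lower than control (log2FC -0.25 ± 0.07, edgeR adjusted p = 0.0058) and 1.23-fold lower than at 2 days (-0.30 ± 0.07, edgeR adjusted p = 0.0015), while at 2 days the log2FC was 0.05 ± 0.07 (edgeR adjusted p = 0.65). Of its 50-base words, 12.6% also occur in other annotated transcripts, mainly the pseudogene Glns-ps1, so a small part of its counts is uncertain. Gls2, a glutaminase that runs the opposite reaction, averaged 18.8 CPM (controls), 12.0 CPM (2 days) and 2.26 CPM (7 days), with a log2FC at 7 days against control of -3.05 ± 0.12 (edgeR adjusted p = 2.4e-12).

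In the proline branch, the first enzyme of synthesis and the first of breakdown were both lower than in controls, and Pycr1 did not pass against control. Aldh18a1 (ENSMUSG00000025007, chromosome 19, 40550257 to 40588463, minus strand) turns glutamate into the pyrroline carboxylate pool and is the entry step to proline and ornithine. Its levels were 207, 199 and 170 CPM in the control samples, 134, 142 and 113 CPM in the 2-day samples and 149, 125 and 110 CPM in the 7-day samples. All samples without doxycycline lay below all controls, and the 2-day and 7-day samples overlapped. Against controls the level was lower by 1.47-fold after 2 days (log2FC -0.56 ± 0.12, edgeR adjusted p = 0.0022) and by 1.5-fold after 7 days (-0.58 ± 0.12, edgeR adjusted p = 2.5e-04). Between 7 and 2 days the log2FC was -0.02 ± 0.12 (edgeR adjusted p = 0.85).

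Proline dehydrogenase, Prodh (ENSMUSG00000003526, chromosome 16, 18060357 to 18090203, minus strand), opens proline breakdown in mitochondria. The control samples had 23.0, 19.1 and 15 CPM, the 2-day samples 11.9, 11.6 and 10.7 CPM and the 7-day samples 2.29, 3.23 and 1.80 CPM. Each group lay wholly below the one before it. The fall was 1.67-fold at 2 days against control (log2FC -0.74 ± 0.15, edgeR adjusted p = 0.0025), 7.78-fold at 7 days against control (-2.96 ± 0.19, edgeR adjusted p = 9.0e-10) and 4.67-fold at 7 days against 2 days (-2.22 ± 0.19, edgeR adjusted p = 4.5e-08). Of all genes tested, 1.16%, Prodh included, had a log2FC as low or lower at 7 days against control. The next enzyme of proline breakdown, Aldh4a1, moved the other way, with 25.6 CPM at 7 days and 16.7 CPM in controls (log2FC 0.62 ± 0.10, edgeR adjusted p = 3.1e-05). Per kb of exon, the ratio of Aldh18a1 to Prodh was 19.6 ± 2.26 in controls, 21.8 ± 1.59 after 2 days and 105 ± 27.3 after 7 days. The 7-day ratios of 73.9 to 124 lay apart from the 17.2 to 21.7 of controls. With 3 samples a group an exact permutation test of such a ratio cannot go below p = 0.1, two-sided, so no test is given for ratios.

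Pycr1 (ENSMUSG00000025140, chromosome 11, 120635712 to 120643769, minus strand), a mitochondrial pyrroline carboxylate reductase that finishes proline synthesis, was low in every group. Control samples had 3.51, 3.82 and 3.16 CPM, 2-day samples 2.91, 3.36 and 2.79 CPM and 7-day samples 4.37, 4.62 and 3.74 CPM. The 7-day samples lay above all 2-day samples and overlapped the controls. It was 1.41-fold higher at 7 days than at 2 days (log2FC 0.49 ± 0.14, edgeR adjusted p = 0.0053), a call that was lost with library size alone as the scaling (0.07, edgeR adjusted p = 0.62). Against control neither time passed (log2FC -0.22 ± 0.14 at 2 days, edgeR adjusted p = 0.3, and 0.27 ± 0.14 at 7 days, edgeR adjusted p = 0.085). Without 7-day replicate 3 the 7-day difference reached an edgeR adjusted p of 0.037. The cytosolic reductase Pycrl (also called Pycr3) was far more abundant per kb of exon, with 43.2 ± 3.01 CPM per kb in controls, 38.9 ± 2.45 after 2 days and 38.8 ± 2.56 after 7 days. Pycr1 had 0.889 ± 0.0835, 0.767 ± 0.0757 and 1.08 ± 0.115 CPM per kb in that order. Pycrl did not pass at 7 days against control (log2FC -0.16 ± 0.08, edgeR adjusted p = 0.098).

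Ornithine aminotransferase, Oat (ENSMUSG00000030934, chromosome 7, 132557478 to 132576398, minus strand), interconverts ornithine and glutamate semialdehyde and so links the proline and arginine branches. It was the most abundant member in every group, with 332, 354 and 354 CPM in the controls, 238, 228 and 235 CPM in the 2-day samples and 241, 237 and 227 CPM in the 7-day samples. Controls lay above every other sample, and the 2-day and 7-day samples overlapped. Against controls Oat was lower by 1.48-fold both after 2 days (log2FC -0.57 ± 0.07, edgeR adjusted p = 2.8e-05) and after 7 days (-0.56 ± 0.07, edgeR adjusted p = 2.9e-06), with a log2FC of 0.01 ± 0.07 between 7 and 2 days (edgeR adjusted p = 0.92). With library size alone as the scaling, Oat and Aldh18a1 were called lower at 7 days than at 2 days (log2FC -0.41 and -0.45, edgeR adjusted p = 5.4e-05 and 8.7e-04), beside a median of -0.44 over all genes under that scaling.

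**Figure D2:**
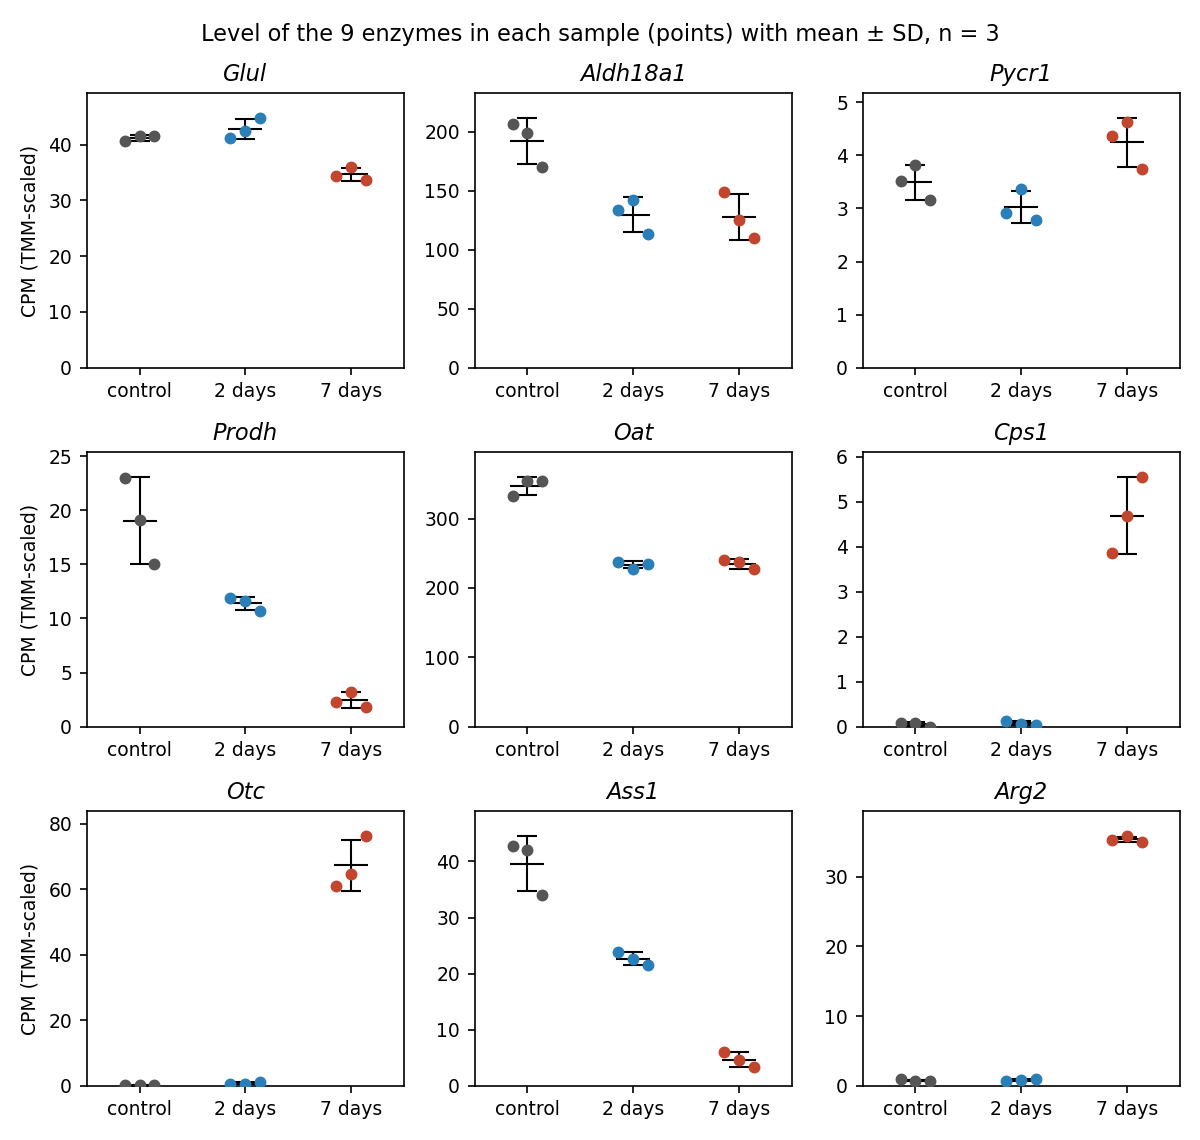
CPM of each enzyme (vertical axis, from 0, scaled per panel) in the 3 samples of each group (points; horizontal axis control, 2 days, 7 days), with mean ± SD. The 2-day and 7-day means of Aldh18a1 were 130 and 128 CPM and those of Oat 234 and 235 CPM, whereas Otc, Cps1 and Arg2 stood at 67.2, 4.69 and 35.4 CPM only at 7 days.

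Of the enzymes of citrulline synthesis, Otc was higher at 2 days already and Cps1 was called higher only at 7 days. Ornithine transcarbamylase, Otc (ENSMUSG00000031173, chromosome X, 10252305 to 10321024, plus strand), joins ornithine and carbamoyl phosphate into citrulline. Its counts were 3, 2 and 2 in controls, 19, 17 and 35 at 2 days and 1411, 1718 and 2076 at 7 days. The levels were 0.116, 0.0574 and 0.071 CPM in controls, 0.582, 0.588 and 1.07 CPM after 2 days and 61.1, 64.5 and 76.1 CPM after 7 days. Every sample of a later group lay above all of the earlier one. Otc was higher at 2 days than in controls (log2FC 3.19 ± 0.46, edgeR adjusted p = 1.1e-04), at 7 days than in controls (9.66 ± 0.23, edgeR adjusted p = 1.3e-14) and at 7 days than at 2 days (6.47 ± 0.17, edgeR adjusted p = 5.0e-14). As ratios of summed counts per scaled library, these were 9.58-fold (95% exact interval 4.42 to 24.7), 858-fold (416 to 2140) and 89.6-fold (70.9 to 115), intervals that cover counting error only. Of the 12535 genes tested, Otc included, 18 (0.144%) had a log2FC as high or higher at 2 days against control and 46 (0.367%) at 7 days against control.

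Carbamoyl phosphate synthetase, Cps1 (ENSMUSG00000025991, chromosome 1, 67123026 to 67231259, plus strand), supplies the carbamoyl phosphate for Otc from ammonia. It had 2, 3 and 0 counts in controls, 4, 2 and 1 at 2 days and 89, 125 and 151 at 7 days. The 7-day level was 3.85, 4.69 and 5.54 CPM, above all other samples, which did not exceed 0.122 CPM. The ratio was 84.3 (95% exact counting interval 35.8 to 261) at 7 days against control and 63.7 (30.6 to 160) at 7 days against 2 days (log2FC 6.28 ± 0.36 and 5.91 ± 0.34, edgeR adjusted p = 2.8e-10 and 4.0e-10). Between 2 days and control, 7 and 5 counts gave a ratio of 1.32 with an interval of 0.361 to 5.28, so a difference was not detectable at this depth. Nags, which makes the N-acetylglutamate that Cps1 needs to be active, averaged 0.0438 CPM in controls (4 counts in all), 0.0639 CPM after 2 days and 5.23 CPM after 7 days (log2FC at 7 days against control 6.73 ± 0.30, edgeR adjusted p = 1.3e-11). Like Cps1, Nags passed the filter on low counts only through the 7-day samples, so a difference was built into its being tested. The mitochondrial ornithine carrier Slc25a15 averaged 75.6 CPM at 7 days and 39.7 CPM in controls (0.93 ± 0.09, edgeR adjusted p = 2.2e-07). Per kb of exon, the ratio of Otc to Oat was 1.3e-04 ± 5.5e-05 in controls, 0.00178 ± 6.6e-04 after 2 days and 0.16 ± 0.024 after 7 days.

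Neither enzyme that turns citrulline into arginine was called higher at 7 days than in controls. Argininosuccinate synthetase, Ass1 (ENSMUSG00000076441, chromosome 2, 31470207 to 31520672, plus strand), takes citrulline toward arginine in the cytosol. The level was 42.8, 42.0 and 34.0 CPM in controls, 23.8, 22.6 and 21.6 CPM after 2 days and 5.93, 4.62 and 3.30 CPM after 7 days. The groups did not overlap. Against controls, Ass1 was lower by 1.75-fold after 2 days (log2FC -0.80 ± 0.13, edgeR adjusted p = 3.6e-04) and by 8.64-fold after 7 days (-3.11 ± 0.16, edgeR adjusted p = 5.6e-11). It was 4.95-fold lower at 7 days than at 2 days (-2.31 ± 0.16, edgeR adjusted p = 2.7e-09). Its 50-base words are shared to 38.6% with the gene Gm5424, so its absolute level is uncertain and depends on how reads with several matches were counted. Asl, which completes arginine from the product of Ass1, averaged 85.8 CPM in controls, 70.4 CPM after 2 days and 87.5 CPM after 7 days, and did not pass against control at either time (log2FC -0.28 ± 0.12 at 2 days, edgeR adjusted p = 0.094, and 0.03 ± 0.12 at 7 days, edgeR adjusted p = 0.83). It was called 1.24-fold higher at 7 days than at 2 days (log2FC 0.31 ± 0.12, edgeR adjusted p = 0.023), though the samples of these groups overlapped. Per kb of exon, the ratio of Ass1 to Asl was 0.924 ± 0.00944 in controls, 0.644 ± 0.0139 after 2 days and 0.104 ± 0.0136 after 7 days.

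Arginase 2, Arg2 (ENSMUSG00000021125, chromosome 12, 79130777 to 79156301, plus strand), splits arginine into ornithine and urea in mitochondria. Controls had 0.888, 0.717 and 0.675 CPM, the 2-day samples 0.704, 0.865 and 0.921 CPM and the 7-day samples 35.3, 35.8 and 35.0 CPM. Control and 2-day samples overlapped (log2FC 0.13 ± 0.20, edgeR adjusted p = 0.72), and the 7-day samples had a coefficient of variation of 1.02%. Arg2 was 46.6-fold higher at 7 days than in controls (5.54 ± 0.13, edgeR adjusted p = 8.9e-15) and 42.4-fold higher than at 2 days (5.41 ± 0.13, edgeR adjusted p = 1.6e-14). Its exons overlap those of Vti1b on the opposite strand by 285 bases, the library kit does not mark strand, and Vti1b averaged 70.6 CPM at 7 days and 36.1 CPM in controls, a 1.96-fold difference. The cytosolic arginase Arg1 stayed below the filter, with means of 0.103 CPM in controls, 0.0422 CPM after 2 days and 0.0498 CPM after 7 days. Nos2, the inducible nitric oxide synthase that uses arginine for nitric oxide and returns citrulline, averaged 0.0804 CPM in controls (7 counts in all), 0.904 CPM after 2 days and 77.9 CPM after 7 days (log2FC against control 3.43 ± 0.59 at 2 days and 9.87 ± 0.31 at 7 days, edgeR adjusted p = 5.5e-04 and 2.5e-13). Nos2 passed the filter on low counts only through the 2-day and 7-day samples.

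**Figure D3:**
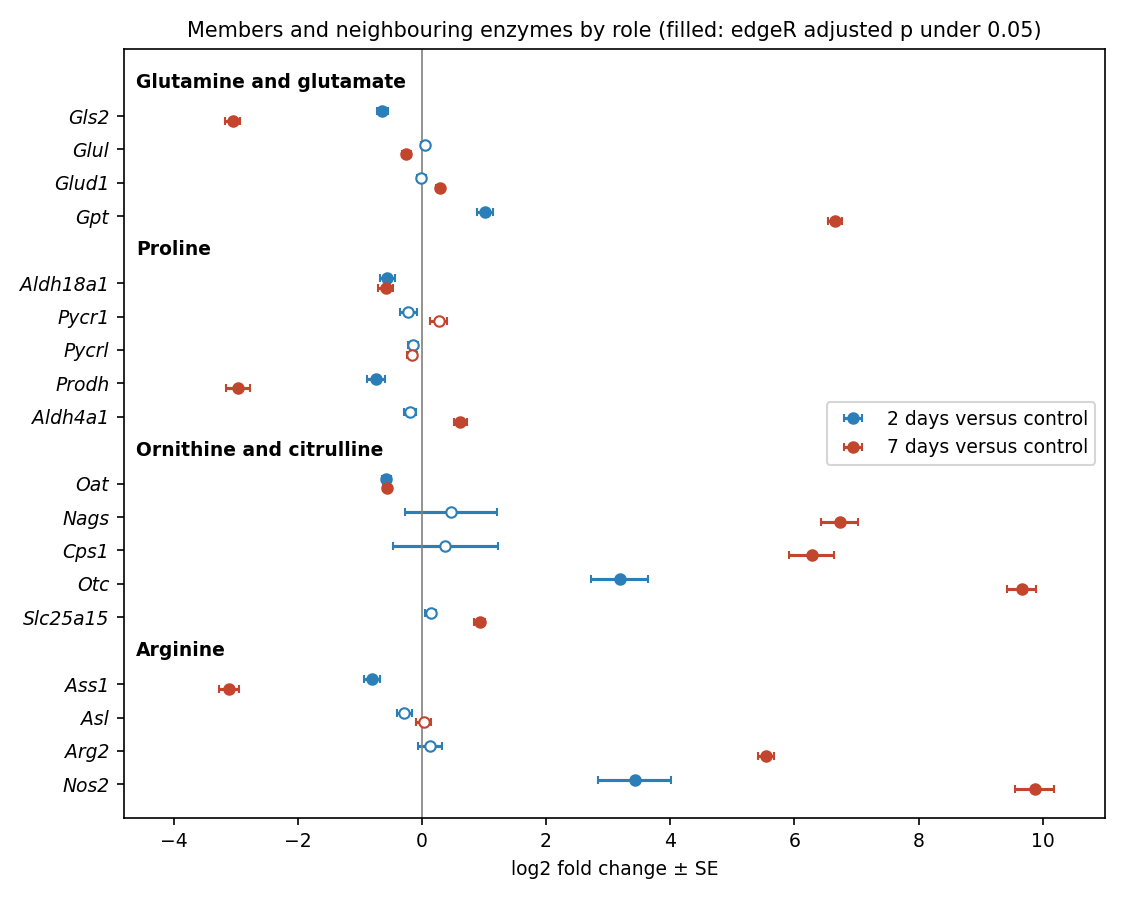
Log2 fold change ± SE against control (horizontal axis) at 2 days and at 7 days for members and neighbouring enzymes (rows) grouped by role, filled where the edgeR adjusted p was under 0.05. At 7 days Nags, Cps1 and Otc lie at 6.73, 6.28 and 9.66, Arg2 and Nos2 at 5.54 and 9.87, Ass1 at -3.11 and Asl at 0.03.

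Other genes of these pathways were read as 3 lists drawn up without the members, and within them Gls2, Glud1, Pycrl, Aldh4a1, Asl, Arg1 and Slc25a15 were named for their place beside a member after their values were seen. Each list gene described as higher or lower passed the edgeR test in that comparison. The glutamine and glutamate list had 22 genes with a row of counts, of which 18 were tested. At 2 days 3 were higher and 8 lower than control (median log2FC -0.20), and at 7 days 8 were higher and 9 lower (median -0.06), or 4 and 10 with library size alone as the scaling. Among all genes tested, 13.1% were called higher and 10.6% lower at 2 days, and 40.5% and 41.8% at 7 days, with TMM. With 82.3% of all genes called at 7 days, the 7-day count says little about this list. The alanine aminotransferase Gpt averaged 2.02 CPM in controls, 4.12 CPM after 2 days and 205 CPM after 7 days, while its mitochondrial relative Gpt2 averaged 12.0, 7.65 and 12.9 CPM in that order and was lower at 2 days (log2FC -0.65 ± 0.09, edgeR adjusted p = 8.3e-05). Abat, which breaks down the transmitter GABA, averaged 75.7 CPM at 7 days and 0.163 CPM in controls. Gfpt1, which spends glutamine on hexosamines, rose 6.46-fold at 7 days against control, and Ctps, which spends it on CTP, was 4.69-fold lower. Psat1, which uses glutamate in serine synthesis, was 1.41-fold lower than control at 2 days and 5.2-fold lower at 7 days. Glud1, glutamate dehydrogenase, averaged 470 CPM at 7 days and 385 CPM in controls (log2FC 0.29 ± 0.07, edgeR adjusted p = 0.0017). The 2-day count of 11 went to 7 without control replicate 2.

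The proline and arginine list had 25 genes with counts listed, of which 22 were tested. At 2 days 4 were higher and 2 lower than control (median log2FC -0.06), and at 7 days 14 were higher and 5 lower (median 0.67), or 11 and 8 with library size alone. The shares of all genes tested, with TMM, were 13.1% higher and 10.6% lower at 2 days, and 40.5% and 41.8% at 7 days. The 7-day risers included the creatine kinases Ckmt1, with 1120 CPM at 7 days and 52.8 CPM in controls, and Ckb, with 366 and 27.6 CPM. At 2 days Ckmt1 was 1.56-fold and the antizyme inhibitor Azin1 1.24-fold higher than control, and Odc1, which makes polyamines from ornithine, was 1.24-fold lower. At 7 days Azin1 was 1.99-fold higher and Odc1 3.55-fold lower than control. Without control replicate 1 the 2-day count of 6 went to 2, and without control replicate 2 it was 3.

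Among 23 transporters of glutamine, proline, arginine and related amino acids, 18 were tested. At 2 days 2 were higher and 6 lower than control (median log2FC -0.02), and at 7 days 11 were higher and 5 lower (median 0.52). Library size alone gave 3 and 5 at 2 days and 8 and 7 at 7 days. The shares of all genes tested, with TMM, were 13.1% higher and 10.6% lower at 2 days, and 40.5% and 41.8% at 7 days. Slc3a1 and Slc7a9, the subunits of the apical carrier of cystine and basic amino acids, averaged 122 and 133 CPM at 7 days against 0.201 and 0.789 CPM in controls, and Slc7a9 was already 6.28-fold higher at 2 days. Slc6a19, the apical carrier of neutral amino acids including glutamine, and Slc6a20a, a proline carrier, averaged 6.54 and 15.5 CPM at 7 days against 0.032 and 0.0665 CPM in controls, where they had 3 and 6 counts in all. Slc7a5, which exchanges glutamine for large neutral amino acids and is typical of growing cells, was 1.56-fold lower at 2 days and 5.32-fold lower at 7 days than control, while its partner Slc3a2 was 1.29-fold lower at 2 days only. At 7 days Slc3a2 did not pass against control (log2FC 0.18 ± 0.10, edgeR adjusted p = 0.12), and it was 1.47-fold higher than at 2 days (edgeR adjusted p = 1.8e-04). The arginine carrier Slc7a1 was 1.23-fold lower than control at 2 days and 2.44-fold lower at 7 days. The 2-day count of 8 went to 3 without control replicate 1, 2 without control replicate 2, and 4, 5 and 3 without 2-day replicates 1, 2 and 3. Lists at 7 days hold genes that passed the filter through their 7-day level alone, and their counts are descriptions.

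Set against exon length, the order of the members changed with time. In controls Oat led at 147 ± 5.39 CPM per kb, followed by Aldh18a1 at 47.1 ± 4.77, Ass1 at 16.4 ± 2.01, Glul at 12.4 ± 0.154, Prodh at 2.44 ± 0.515, Pycr1 at 0.889 ± 0.0835, Arg2 at 0.532 ± 0.0791, Otc at 0.0192 ± 0.00721 and Cps1 at 0.0098 ± 0.00853 (SD, n = 3 each), and of the neighbours in that order Otc and Cps1 overlapped. At 2 days Glul, at 12.9 ± 0.549, stood above Ass1, at 9.39 ± 0.461, and the rest of the order was as in controls. After 7 days the order was Oat at 99.6 ± 3.16, Aldh18a1 at 31.4 ± 4.82, Arg2 at 24.8 ± 0.253, Otc at 15.9 ± 1.86, Glul at 10.4 ± 0.367, Ass1 at 1.91 ± 0.545, Pycr1 at 1.08 ± 0.115, Cps1 at 0.845 ± 0.152 and Prodh at 0.313 ± 0.0933, and Pycr1 and Cps1 overlapped. Oat and Aldh18a1 kept the highest places in all 3 groups. Of the summed per-kb level of the 9, Oat held 62.3% to 67.8% (controls), 61.7% to 65.2% (2 days) and 53% to 53.9% (7 days), and Arg2 and Otc held means of 13.3% and 8.54% at 7 days, against 0.235% and 0.00849% in controls. The length is that of all annotated exons of a gene joined, so an enzyme with long unused exons is placed too low.

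**Figure D4:**
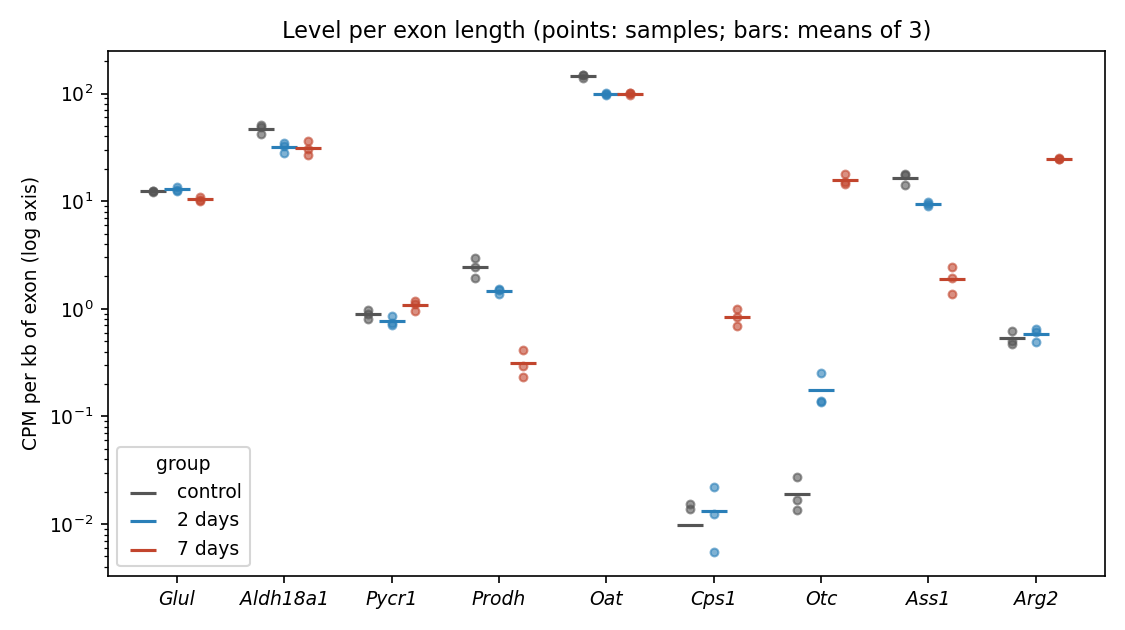
CPM per kb of exon (vertical log axis) for each enzyme in control, 2-day and 7-day samples (points) with group means (bars); a control sample with 0 counts of Cps1 is not drawn as a point. Oat lies at 147, 99.1 and 99.6 in the 3 groups, while Otc and Arg2 lie at 15.9 and 24.8 at 7 days.

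The timing differed among the members. On the log2 scale and with TMM, the 2-day difference from control was 101% of the 7-day difference for Oat and 95.9% for Aldh18a1, 33.0% for Otc, 25.8% for Ass1, 24.9% for Prodh, 6.02% for Cps1 and 2.43% for Arg2, shares that use the same controls on both sides. With library size alone, the log2FC at 2 and 7 days was -0.55 and -0.97 for Oat. For Aldh18a1 it was -0.54 and -0.99, beside a 7-day median of -0.43 over all genes. The 2-day differences of Cps1 (log2FC 0.38 ± 0.85) and Arg2 (0.13 ± 0.20) were not called. The genes whose centred log2 CPM followed a member most closely over the 9 samples were found among all tested genes, as descriptions, since most genes differ between the same 3 groups. For Arg2 the closest was Malrd1, with a root mean square difference of 0.139 (r = 0.999 over 9 samples) and for Cps1 Sult6b2 (0.274, r = 0.998). Prodh was nearest to Relt (0.128, r = 0.995) and Ass1 to Aqp5 (0.142, r = 0.995). Aldh18a1 was nearest to Tango6 (0.0953, r = 0.968), Oat to Vgll4 (0.0849, r = 0.950), Glul to Cnot8 (0.0427, r = 0.964) and Pycr1 to Ivd (0.0777, r = 0.951). No member was among the 3 genes closest to another member.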

How the data were processed

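Raw counts of reads per Ensembl gene were deposited by the authors in 1 table that covers all 9 samples. Per the submitters' processing notes, STAR 2.7.0e, featureCounts and DESeq2 were used with builds mm10 and GRCm38; no source used here states the annotation release, the strand setting or the treatment of multiple matches. Per the labels' protocols, poly(A) libraries were made with a kit that does not mark strand. Symbols and coordinates came from GENCODE M21 (GRCm38), in which 21236 of the 21253 IDs were found, and promoter windows from RefSeq (GRCm38.p6).

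Counts were filtered with filterByExpr (minimum count 10), scaled by TMM (factors 0.785 to 1.125) and tested in edgeR 4.0.16 (R 4.3.3) with the quasi-likelihood model over all 9 samples, group as the factor. P-values were two-sided and Benjamini-Hochberg adjusted over 12535 genes, with calls under 0.05. The SE is the log2 fold change over the square root of F. Alternatives were other scalings and filters, limma-voom (limma 3.58.1), the DESeq2 1.42.0 Wald test, the 2 groups compared alone, a replicate block and leaving out each sample. Replicates of a group differed by 4.24 to 38.3 in chi-square per degree of freedom, above sampling noise. The code was first tested on simulated data.

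The members and lists were chosen with earlier results of these data known. The text names all members, up to 4 genes per list and comparison with the smallest p, and the 3 genes nearest in pattern to each member, of which the first is given. Results for some genes under this rule are not reported here.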

Additional observations from a re-analysis of the deposited data

How the results depend on the processing

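Under the alternatives, leaving out each sample included, 407 of 425 recomputed log2 fold changes of members kept their direction and their side of the threshold. Members called numbered 5 at 2 days in all of them, 7 to 9 at 7 days against control and 5 to 8 at 7 days against 2 days. The lowest 7-day counts, 7 and 5, came with the filter on a mean of at least 5 CPM. That filter left 7 members to test, without Pycr1 and Cps1. The median of all genes at 7 days against control was -0.43 with library size alone and -0.13 with upper quartile. Signs turned for differences that were not called in the analysis as reported: Aldh18a1 at 7 days against 2 days (0.02 with DESeq2 size factors and the DESeq2 Wald test, 0.00, 0.04 and 0.08 without 2-day replicate 1, 2-day replicate 2 or 7-day replicate 3, within -0.15 to 0.08 over all samples left out), Oat in that comparison (-0.41 with library size alone, where it was called, -0.12 with upper quartile, -0.01 with no filter, -0.02 with the 2 groups alone, -0.01 without 2-day replicate 2 or 7-day replicate 1), Pycr1 at 7 days against control (-0.13 with library size alone) and Cps1 at 2 days (-0.14 and -0.19 without control replicate 3 or 2-day replicate 1, within -0.19 to 0.93).

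List counts at 2 days moved most when 1 sample was left out: 7 to 10 for glutamine and glutamate, 2 to 8 for proline and arginine and 2 to 8 for transporters. The cause was not tested. With the replicate number as a block, members called were 5, 9 and 7, since Pycr1 at 7 days passed (log2FC 0.28, edgeR adjusted p = 0.047), and not every sample correlated best with its own number. Deviations of same-numbered samples correlated by -0.13 to 0.48, with 5 of 9 pairs over 0.1, so the numbers were not taken as pairs. Cps1 before 7 days had at most 4 counts a sample, which limits what could be seen.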
